A study of Mus musculus with 4 samples.

Results

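NF-κB is a family of transcription factors that carries signals from the T cell receptor, CD28 and the TNF receptors to the nucleus, and in T cells it is known for driving cytokine, survival and costimulatory genes. Its 5 subunits pair with each other, and in resting cells the pairs are held in the cytoplasm by inhibitor (IκB) proteins until a kinase marks the inhibitor for degradation. Several inhibitors, and the ubiquitin-editing enzyme A20, are themselves induced by NF-κB and close a negative feedback loop. The genes described here are the 5 subunit genes (*Nfkb1*, *Nfkb2*, *Rel*, *Rela* and *Relb*), 4 inhibitor genes (*Nfkbia*, *Nfkbie*, *Nfkbid* and *Nfkbiz*) and *Tnfaip3*, which encodes A20. They were taken by name from the gene list of the data set. All 10 were found among the 24369 genes listed, and all 10 passed the filter on low counts that left 14143 genes to test.

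RNA-seq was done on 4 libraries of GFP+ CD4 T cells, 2 of cells given the empty vector MSCV-IRES-eGFP (EV RV) and 2 of cells given MSCV-Tox-IRES-eGFP (Tox RV). In both groups naive CD4 T cells from spleens of wild-type C57BL/6 mice had been activated with anti-CD3, anti-CD28 and IL-2 without polarizing cytokines. They were transduced on day 2, later rested without anti-CD3, restimulated on day 5 for 5 h, and then sorted as GFP+. For the restimulation the study's methods name anti-CD3, and its results name anti-CD3 and anti-CD28. The study states 2 mice per group, and does not give their age for this experiment. Tox was therefore made from a viral vector in cells that had just been restimulated, and the comparison is of Tox RV with EV RV cells in that state, with no unstimulated library among the 4.

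The libraries held 46989997 to 74548723 expected counts. Values for single libraries are given with replicate 1 first and replicate 2 second, in CPM, the count divided by library size as scaled by edgeR's TMM method, and SE is the standard error of a fitted log2 fold change. *Tox* read 11.7 and 5.73 CPM with EV RV against 121 and 99.9 CPM with Tox RV, so every library matched its label. With a log2 change of 3.68 (SE 0.38) it had an edgeR adjusted p of 0.490, the smallest of any gene, and a DESeq2 adjusted p of 3.79e-24. Between these 4 libraries edgeR's test therefore did not call even the gene that was added. The 5 CD4 T cell markers looked at (*Cd3d*, *Cd3e*, *Cd3g*, *Cd4* and *Thy1*) summed to 1212 to 1710 CPM per library. Markers of B cells summed to 1.16 and 1.62 CPM with EV RV against 1.42 and 1.52 CPM with Tox RV, and those of myeloid cells to 1.40 and 0.933 CPM and to 1.33 and 0.925 CPM. *Ms4a1* of B cells was at 0 counts in all 4 libraries. Markers of CD8 T and NK cells summed to 11.1 to 55.5 CPM per library and are given by gene beside the replicate differences. In sorted bulk RNA, fewer cells of a kind and less RNA per cell cannot be told apart.

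Transcripts of the classical p50 precursor and of IκBα were the most abundant of the family. On the TPM scale, which corrects for transcript length and so allows levels of different genes to be compared, *Nfkb1* was at 367.6 ± 16.5 TPM (SD, n = 2) in EV RV and 298 ± 12.3 TPM (SD, n = 2) in Tox RV cells, and *Nfkbia* at 331 ± 82.1 and 345 ± 50.6 TPM (SD, n = 2 each). By mean TPM over the 4 libraries *Nfkb1* ranked 304 among the 14143 genes tested, next to *Nfkbia*. *Nfkb2* followed at 192 ± 55.9 TPM in EV RV and 154 ± 19.7 TPM in Tox RV cells, then *Relb* at 96.8 ± 28.1 and 79.4 ± 4.59 TPM, *Tnfaip3* at 83.1 ± 41.8 and 72.3 ± 12.9 TPM and *Rela* at 61.8 ± 20.5 and 51.6 ± 5.28 TPM (SD, n = 2 each). *Nfkbie*, *Nfkbid*, *Rel* and *Nfkbiz* were the lowest, with *Nfkbiz* at 20.2 ± 12.7 and 15.7 ± 7.62 TPM (SD, n = 2 each), rank 5664. Thus *Rel*, the gene of the lymphoid subunit c-Rel, stood at 23.8 ± 9.77 and 25.3 ± 5.43 TPM (SD, n = 2 each), below *Rela* in all 4 libraries. The order of neighbouring genes was the same in all 4 libraries except in 2 places. *Nfkbia* lay above *Nfkb1* in 3 of 4 libraries, and *Nfkbie* above *Nfkbid* in 1 of 4, so the levels within these pairs were not separated beyond their spread.

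**Figure D1:**
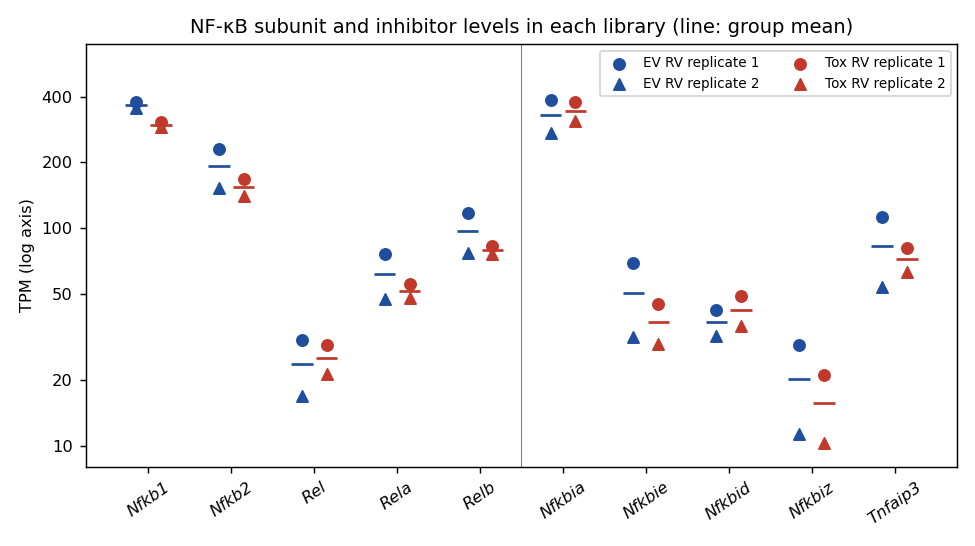
Level of each NF-κB gene in TPM on a log axis, with subunits left and inhibitors right of the grey line, circles for replicate 1, triangles for replicate 2 and a line at the mean of each group of 2 libraries. *Nfkb1* is the gene whose groups stand apart, and in each group the circle lies above the triangle for all 10 genes.

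The question put to these genes was whether cells carrying Tox RV differed from EV RV cells in the NF-κB machinery. None of the 10 genes passed the threshold used, 0.05 on the Benjamini-Hochberg adjusted p of edgeR's quasi-likelihood test. The fitted changes were small, with absolute log2 fold changes from 0.11 to 0.34, and with Tox RV 3 genes were fitted higher and 7 lower. Their median was -0.18, against 0.0036 for all genes tested, and EV RV replicate 1 decided its sign, since without that library it was 0.33. In this test 0% of all genes passed the adjusted threshold, and 0 of the 10 had an unadjusted p-value below 0.05, beside 1.07% of all genes that did so with a higher and 2.55% with a lower level in Tox RV cells. DESeq2, the tool named in the study's methods, called 0.121% of the genes for which it gave an adjusted p-value and 0 of these 10. The rounded counts behind each value ran from 1215 to 67884 per library, for a counting error of 2.87% down to 0.384%, against fitted standard errors of 0.15 to 0.51 on the log2 scale. With 2 libraries per group a missed threshold does not show that levels were equal.

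*Nfkb1* (chromosome 3 of mm10, 135584655 to 135691547, minus strand) encodes p105, which is processed to p50. It read 903 and 892 CPM with EV RV against 794 and 749 CPM with Tox RV. Both Tox RV libraries thus lay below both EV RV libraries, the only gene of the 10 in which the groups did not overlap. Across all genes tested 17.4% had both Tox RV libraries below and 18.6% had them above, so 1 gene of 10 is not above the background. The fitted log2 fold change came to -0.22 (SE 0.15, 95% interval -0.60 to 0.16, edgeR adjusted p = 0.897), or 1.16-fold lower in Tox RV cells. Leaving out any 1 library gave -0.27 to -0.18. With libraries scaled by their totals in place of TMM, which moved the median of all genes to 0.12, 0 of the 10 genes had both Tox RV libraries below.

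*Nfkb2* (chromosome 19, 46304320 to 46312385, plus strand) encodes p100, the precursor of p52 and itself an inhibitor that retains RelB protein. It read 406 and 281 CPM with EV RV against 321 and 267 CPM with Tox RV. The Tox RV value of replicate 1 fell between the EV RV values. The fitted log2 fold change came to -0.22 (SE 0.23, 95% interval -0.80 to 0.35, edgeR adjusted p = 0.898). *Nfkb2* overlaps *Psd* on the other strand, and use of strand in counting is not stated, but *Psd* was at 10.2 to 25.7 CPM. *Relb* (chromosome 7, 19606217 to 19629438, minus strand), the transactivating partner of p52, read 144 and 100.2 CPM with EV RV against 111 and 102 CPM with Tox RV. Both Tox RV libraries lay within the range of the EV RV libraries, and the fitted log2 fold change came to -0.20 (SE 0.22, 95% interval -0.75 to 0.35, edgeR adjusted p = 0.902). Both genes of the alternative pathway were thus fitted on the same side of 0, by less than the EV RV replicates differed. Without EV RV replicate 1 they were at 0.061 and 0.085.

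The transactivating subunits of the classical pathway were fitted in opposite directions. *Rela* (chromosome 19, 5637483 to 5648130, plus strand), which encodes p65, read 117 and 76.3 CPM with EV RV against 92.0 and 79.6 CPM with Tox RV. Both Tox RV values lay between the EV RV values, for a fitted log2 change of -0.17 (SE 0.25, 95% interval -0.78 to 0.44, edgeR adjusted p = 0.912). *Rel* (chromosome 11, 23736847 to 23770970, minus strand) read 44.8 and 25.96 CPM with EV RV against 46.2 and 34.0 CPM with Tox RV. Its highest value was in a Tox RV and its lowest in an EV RV library, but the groups overlapped, for a fitted log2 change of 0.18 (SE 0.31, 95% interval -0.58 to 0.95, edgeR adjusted p = 0.922). EV RV replicate 1 decided the sign for *Rela*, which was 0.16 without it, and EV RV replicate 2 or Tox RV replicate 1 for *Rel*, which was -0.16 and -0.07 without them.

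Of the inhibitors that hold NF-κB in the cytoplasm, *Nfkbia* (chromosome 12, 55489410 to 55492647, minus strand), the gene of IκBα, read 336 and 248 CPM with EV RV against 357 and 290 CPM with Tox RV. The ranges overlapped, and the fitted log2 fold change came to 0.15 (SE 0.22, 95% interval -0.40 to 0.70, edgeR adjusted p = 0.914). *Nfkbie* (chromosome 17, 45555703 to 45563169, plus strand), the gene of IκBε, read 93.8 and 45.3 CPM with EV RV against 66.1 and 43.6 CPM with Tox RV. EV RV replicate 1 stood above the other 3 libraries. The log2 fold change of -0.34 was the largest in size among the 10 genes, with an SE of 0.39 and a 95% interval of -1.30 to 0.62 (edgeR adjusted p = 0.902). Without EV RV replicate 1 it was 0.27, and for *Nfkbia* the sign turned without EV RV replicate 2, at -0.053, and without Tox RV replicate 1, at -0.018.

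The atypical inhibitors act mainly in the nucleus, where they modify the choice of target genes. *Nfkbid* (chromosome 7, 30421732 to 30428746, plus strand) encodes IκBNS and read 46.8 and 37.4 CPM with EV RV against 58.9 and 43.1 CPM with Tox RV. Tox RV replicate 2 lay below EV RV replicate 1, so the groups overlapped. The log2 fold change of 0.28 was the highest of the 10 genes (SE 0.23, 95% interval -0.29 to 0.84, edgeR adjusted p = 0.897), and leaving out any 1 library gave 0.024 to 0.48. *Nfkbiz* (chromosome 16, 55811375 to 55838899, minus strand) encodes IκBζ and read 61.5 and 25.1 CPM with EV RV against 48.0 and 23.4 CPM with Tox RV. Within each group the replicates were further apart than the groups were and its interval was the widest of the family, with a log2 fold change of -0.28, an SE of 0.51 and a 95% interval of -1.53 to 0.98 (edgeR adjusted p = 0.927). Its sign turned without EV RV replicate 1, at 0.51, and without Tox RV replicate 2, at 0.15.

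*Tnfaip3* (chromosome 10, 19000910 to 19015657, minus strand) encodes A20, which removes and edits ubiquitin chains on the signalling proteins upstream of NF-κB. It read 287 and 144 CPM with EV RV against 225 and 175 CPM with Tox RV. Both Tox RV libraries lay between the EV RV libraries. Its log2 fold change of -0.11 was the smallest in size of the 10 (SE 0.35, 95% interval -0.96 to 0.75, edgeR adjusted p = 0.959). It was 0.47 without EV RV replicate 1, -0.52 without EV RV replicate 2, 0.065 without Tox RV replicate 2 and 0.045 with libraries scaled by their totals.

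**Figure D2:**
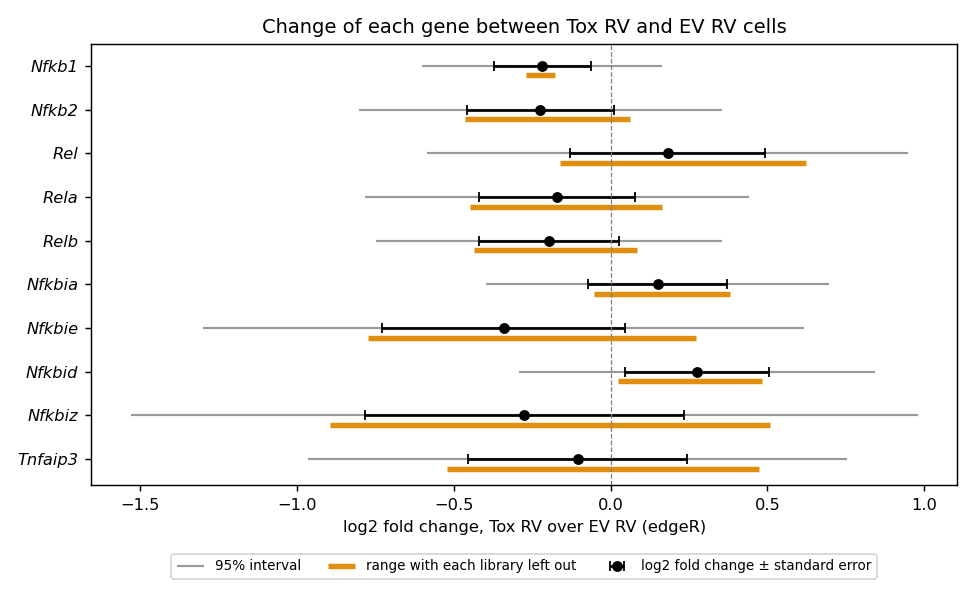
Log2 fold change of each gene in Tox RV over EV RV cells (black point, bar of 1 standard error), its 95% interval (grey line) and the range of values with each of the 4 libraries left out (orange line). All 10 intervals include 0, and the orange range stays on its side of 0 for *Nfkb1* and *Nfkbid*.

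The difference between replicates was larger than the difference between groups for most of these genes, and it ran the same way in all of them. In normalized CPM, replicate 1 lay above replicate 2 in both EV RV and Tox RV cells for 10 of 10 genes, whereas 32.3% of all genes tested had this arrangement. The log2 difference of replicate 1 minus replicate 2 had a median over the 10 genes of 0.57 in EV RV and 0.33 in Tox RV cells, against 0.0054 and 0.0026 over all genes. Over all genes this difference had an SD of 0.71 in EV RV and 0.46 in Tox RV cells. The median size of the fitted change between groups was 0.21. That change was smaller than the EV RV replicate difference for 9 of 10 genes, with *Nfkb1* as the exception, and smaller than the Tox RV replicate difference for 8 of 10, with *Nfkb1* and *Relb* as exceptions. No such share was counted over all genes, and a difference between 2 single libraries varies more than one between means of 2 libraries. These counts therefore cannot be read as particular to the 10 genes. *Nfkbiz* had the widest replicate differences, 1.29 in EV RV and 1.04 in Tox RV on the log2 scale, and *Nfkbie* and *Tnfaip3* differed by 1.05 and 1.00 between the EV RV replicates. *Nfkb1* had the smallest, 0.02 and 0.09. A replicate number is not stated to mark the same mouse in both groups, so this is a description of 4 libraries and not a test.

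Other groups of genes shared this arrangement in part. Of the 13 genes of T cell restimulation looked at, such as *Nr4a1*, *Egr1* and *Cd69*, 9 were higher in replicate 1 in both groups (69.2%). Not among these 9 was *Ifng*, at 10.9 and 107 CPM with EV RV against 96.0 and 47.4 CPM with Tox RV. The same held for *Atf3*, at 30.3 and 63.2 CPM against 44.7 and 33.4 CPM. Replicate 1 was also higher in both groups for 14 of 24 genes upstream of NF-κB (58.3%). It was so for 9 of 25 target genes of NF-κB (36.0%) and 7 of 19 other inhibitors of the pathway (36.8%), nearer the share over all genes. For these other inhibitors the median replicate difference was -0.09 in EV RV, opposite in sign to that of the 10 genes, and 0.12 in Tox RV, of the same sign. All 5 CD4 T cell markers were higher in replicate 1 in both groups. The summed level of 5 CD8 T and NK cell markers was 55.5 and 16.3 CPM with EV RV against 32.2 and 11.1 CPM with Tox RV. Of these 5, *Ncr1* was at 0 counts in all 4 libraries, *Cd8a* at 1.54 to 2.14 CPM and *Cd8b1* at 1.73 to 3.21 CPM. *Klrk1* was the highest in every library, at 36.6 and 10.5 CPM with EV RV against 17.2 and 4.86 CPM with Tox RV, and *Klrd1* stood at 14.2 and 1.90 CPM against 10.2 and 1.99 CPM. The 45S pre-rRNA share was also higher in replicate 1 of each group, 24.7% and 11.97% with EV RV and 10.3% and 7.14% with Tox RV. Which of these, if any, has a part in the replicate difference of the NF-κB genes was not tested.

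**Figure D3:**
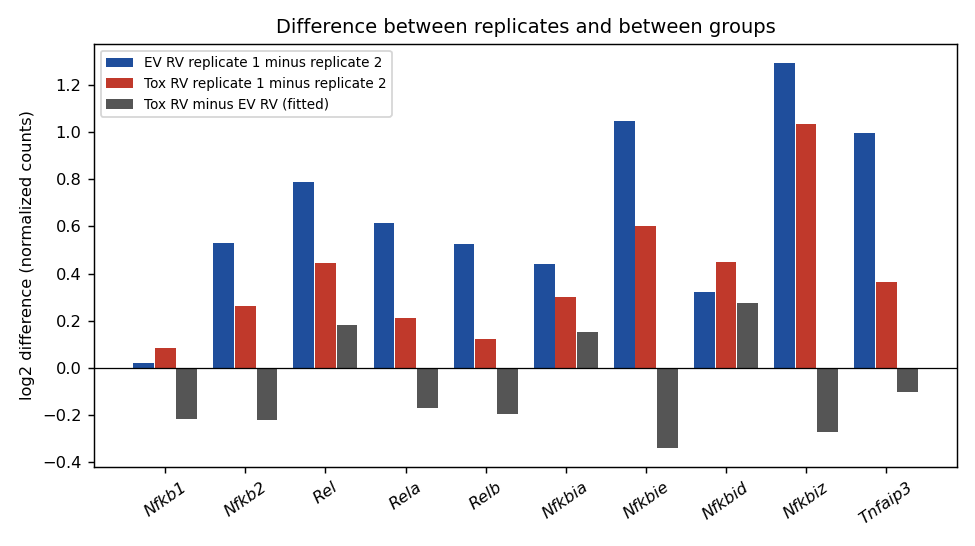
Log2 difference in normalized counts between replicate 1 and replicate 2 of EV RV cells (blue) and of Tox RV cells (red), with the fitted difference between Tox RV and EV RV cells (grey), for each gene. All blue and red bars lie above 0, and the grey bars lie on both sides of it.

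Several of these genes are known targets of NF-κB, so their promoters are shown. NF-κB binds κB sites, and a simple form of the site was searched on both strands, GGG and TTCC separated by 3 bases of any kind, in windows from 250 bases before to 50 bases after each start site given by RefSeq (GRCm38.p6, the build of mm10). Of the 10 genes 7 had windows in the table, 12 windows in all, and *Nfkb1*, *Relb* and *Nfkbiz* had none. A match was present in at least 1 window of 6 of these 7 genes (*Nfkb2*, *Rel*, *Nfkbia*, *Nfkbie*, *Nfkbid* and *Tnfaip3*). Of the 12 windows 9 had a match. *Nfkb2* has overlapping windows that share a match, which counts in each of them. By comparison, 6.31% of the 27025 genes and 5.56% of the 32851 windows searched had one. The search left out a chromosome that holds none of the 10 genes. The degenerate κB consensus gave the same 6 genes and 8 of the 12 windows, beside 5.14% of the genes and 4.51% of the windows searched. Each match printed below is also a match of it. *Rela* had no match in its window. The matches are descriptions of sequence, and binding was not measured here.

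The 250 bases before the start are printed for *Nfkbia*, *Nfkbie* and the second start of *Nfkbid*, where no annotated exon lies in them, and 30 bases around the match nearest the first start for *Rel*, *Nfkb2* and *Tnfaip3*. Each runs 5′ to 3′ on the strand of the gene, and capitals mark the match. The stretches are chr12:55492648-55492897 (minus strand) for *Nfkbia*, chr17:45555450-45555699 (plus strand) for *Nfkbie*, chr7:30422156-30422405 (plus strand) for *Nfkbid*, chr11:23771041-23771070 (minus strand) for *Rel*, chr19:46304716-46304745 (plus strand) for *Nfkb2* and chr10:19015403-19015432 (minus strand) for *Tnfaip3*.
Nfkbia: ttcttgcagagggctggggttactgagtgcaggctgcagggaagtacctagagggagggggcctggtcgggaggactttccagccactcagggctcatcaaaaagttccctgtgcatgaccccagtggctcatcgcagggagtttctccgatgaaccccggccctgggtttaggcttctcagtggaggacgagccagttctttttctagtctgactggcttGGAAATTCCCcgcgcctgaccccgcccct
Nfkbie: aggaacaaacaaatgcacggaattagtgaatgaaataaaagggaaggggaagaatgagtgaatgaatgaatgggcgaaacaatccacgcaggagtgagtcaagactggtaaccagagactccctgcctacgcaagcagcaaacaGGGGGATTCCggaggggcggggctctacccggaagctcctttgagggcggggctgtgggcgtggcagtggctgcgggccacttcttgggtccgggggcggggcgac
Nfkbid: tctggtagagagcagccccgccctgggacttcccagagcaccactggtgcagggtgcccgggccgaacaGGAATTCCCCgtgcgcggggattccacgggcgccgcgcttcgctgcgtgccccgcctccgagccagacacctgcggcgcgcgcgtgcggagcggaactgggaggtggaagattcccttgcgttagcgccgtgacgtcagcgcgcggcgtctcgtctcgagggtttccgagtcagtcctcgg
Rel: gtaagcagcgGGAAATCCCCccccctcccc
Nfkb2: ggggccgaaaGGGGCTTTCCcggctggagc
Tnfaip3: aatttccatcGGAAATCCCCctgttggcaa

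The match began 29 bases before the start in *Nfkbia*, 11 in *Nfkb2*, 12 in *Tnfaip3*, 91 in *Rel*, 106 in *Nfkbie* and 181 in *Nfkbid*. It read on the strand of the gene in *Nfkb2* and *Nfkbie*, and on the opposite strand in the others. Capitals mark the simple form only. The *Nfkbid* stretch also holds a separate match of the degenerate consensus, 226 bases before the start on the strand of the gene.

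The make-up of the family within each library does not depend on how libraries are scaled to each other, and for 4 of 5 subunits the group means of the share differed by less than the SD within EV RV, *Rel* being the exception. *Nfkb1* made up 50.1% ± 6.60 of the summed TPM of the 5 subunits in EV RV and 49.1% ± 1.79 in Tox RV cells (SD, n = 2 each), *Nfkb2* 25.6% ± 3.02 and 25.3% ± 1.27, *Relb* 12.9% ± 1.51 and 13.1% ± 0.26, and *Rela* 8.21% ± 1.32 and 8.46% ± 0.210. The share of *Rel* was 3.68% and 2.61% with EV RV against 4.54% and 3.73% with Tox RV. For *Rel* the groups did not overlap, with Tox RV higher by a margin of less than the gap between the replicates of either group. The ratio of *Rel* to *Rela* TPM, looked at after these values were seen, was 0.403 and 0.358 with EV RV against 0.527 and 0.449 with Tox RV. The groups also stood apart for *Rel* over *Nfkb2*, *Nfkbia* over *Rela* and *Nfkbid* over *Nfkbie*. They overlapped for *Nfkb1* over *Rela*, *Nfkb2* or *Relb*, *Nfkbia* over *Nfkbie* and *Nfkbid* over *Nfkbiz*. In CPM 18.6% of all genes tested had both Tox RV libraries above and 17.4% had them below, so separation is common for single genes. No such share was counted for TPM shares or ratios, so these separations cannot be read as particular to the genes named.

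*Nfkbia* made up 64.3% ± 5.25 of the summed TPM of the 5 inhibitors in EV RV and 67.5% ± 2.13 in Tox RV cells, and *Tnfaip3* 15.5% ± 2.98 and 14.1% ± 0.0040 (SD, n = 2 each). The share of *Nfkbie* was 10.8% and 7.86% with EV RV against 7.75% and 6.58% with Tox RV. Its groups did not overlap, and those of the other inhibitors did. The summed inhibitors, *Tnfaip3* included, divided by the summed subunits gave 0.769 and 0.617 with EV RV against 0.898 and 0.778 with Tox RV. This is a ratio of RNA sums and not a measure of inhibition. The subunit sum is not free of inhibitors, and *Nfkb2*, whose p100 is also one, is an instance. Both Tox RV ratios were above both EV RV ratios, but Tox RV replicate 2 and EV RV replicate 1 were next to each other. The difference between the groups was 0.28 on the log2 scale, where the SD within EV RV was 0.22, and no test was run on a ratio of sums. It was 0.12 without EV RV replicate 2, 0.18 without Tox RV replicate 1 and 0.44 without EV RV replicate 1. Without *Nfkbia* the ratios were 0.303, 0.197, 0.305 and 0.241 in the same order, and the groups overlapped.

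**Figure D4:**
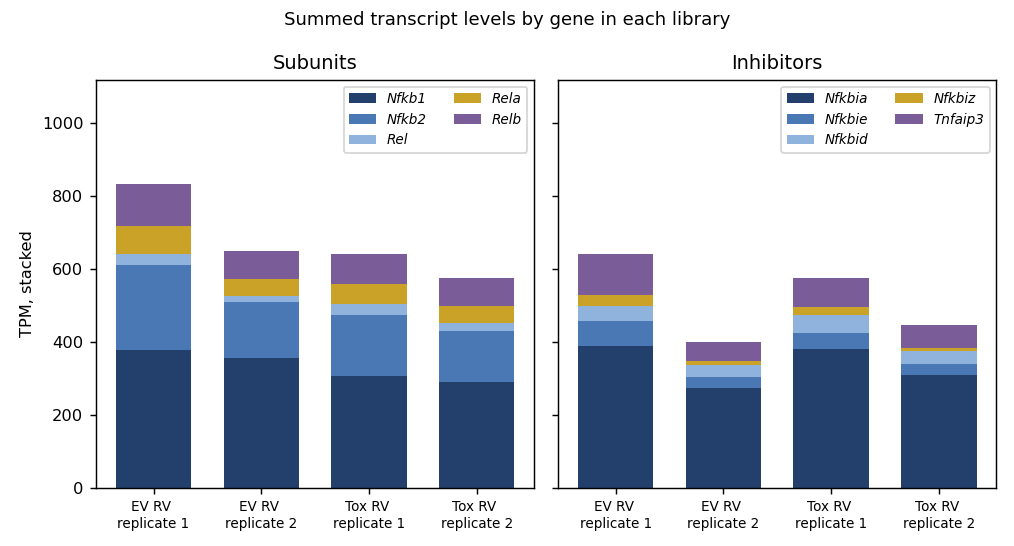
TPM of the 5 subunit genes (left) and the 5 inhibitor genes (right) stacked for each of the 4 libraries, on linear axes from 0. *Nfkb1* and *Nfkbia* are the largest blocks, and EV RV replicate 1 has the highest sums, 835 TPM of subunits and 642 TPM of inhibitors.

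The wider pathway was looked at through lists of genes. Of 24 upstream activators, which include kinases and adaptors below the T cell receptor, ubiquitin ligases and the IκB kinases, 14 were fitted higher and 10 lower in Tox RV cells, 0 of them at an unadjusted p-value below 0.05 in edgeR's quasi-likelihood test. Their median log2 fold change was 0.04, against 0.0036 for all genes, and it was -0.11 without EV RV replicate 2 and -0.05 without Tox RV replicate 1. The most abundant were *Rbck1*, a subunit of the linear ubiquitin ligase, with a fitted log2 change of -0.09 (SE 0.20), *Ube2v1*, a partner of the ubiquitin-conjugating enzyme for K63 chains, at -0.11 (SE 0.16), *Prkcq*, the protein kinase C that follows the T cell receptor, at -0.13 (SE 0.16), and *Ikbke*, an IκB kinase-related kinase, at -0.28 (SE 0.24). *Prkcq* and *Ube2v1* kept their sign with any 1 library left out, while *Rbck1* ran from -0.29 to 0.12 and *Ikbke* from -0.52 to 0.0064. *Prkcq* read 182 and 178 CPM with EV RV against 158 and 170.0 CPM with Tox RV, with both Tox RV libraries below. In this list 5 genes had both Tox RV libraries above and 5 had them below both EV RV libraries, beside 18.6% and 17.4% of all genes.

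Of 19 other inhibitors tested 13 were fitted higher with Tox RV and 6 lower. The list's median log2 fold change was 0.07. Both Tox RV libraries were above both EV RV libraries for 6 of the 19 genes and below for 2, beside 18.6% and 17.4% of all genes. At an unadjusted p-value below 0.05 in edgeR's quasi-likelihood test there was 1, beside 1.07% of all genes that were higher and 2.55% lower. This was *Nfkbil1*, an IκB-like gene of the MHC region. It read 12.7 and 13.5 CPM with EV RV against 17.5 and 18.4 CPM with Tox RV, a log2 change of 0.45 (SE 0.18, edgeR adjusted p = 0.897). *Otulin*, the enzyme that cuts linear ubiquitin chains, read 69.9 and 95.6 CPM with EV RV against 106 and 96.4 CPM with Tox RV, for a fitted log2 change of 0.29 (SE 0.21). *Tnip1*, whose protein binds A20, stood at -0.22 (SE 0.28), *Tax1bp1*, another A20 partner, at 0.07 (SE 0.24), and *Commd1*, which aids the turnover of RelA protein, at 0.22 (SE 0.23). None of these 4 reached an unadjusted p-value of 0.05 in that test. Leaving out any 1 library gave 0.076 to 0.53 for *Otulin* and 0.0049 to 0.46 for *Commd1*, and it turned the sign of *Tnip1* (-0.56 to 0.21) and *Tax1bp1* (-0.21 to 0.40).

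The 25 NF-κB target genes were fitted on both sides of 0, 17 higher and 8 lower, with a median log2 fold change of 0.17. At an unadjusted p-value below 0.05 in edgeR's quasi-likelihood test 2 were higher and 2 lower, beside 1.07% and 2.55% of all genes. The adjusted threshold was passed by 0 of the list in that test or in DESeq2. Both Tox RV libraries were above both EV RV libraries for 6 of the 25 genes and below for 5, beside 18.6% and 17.4% of all genes. *Lta*, the gene of lymphotoxin alpha, read 50.2 and 50.8 CPM with EV RV against 101 and 71.5 CPM with Tox RV, a log2 change of 0.77 (SE 0.22) that was 0.49 to 1.00 when any 1 library was left out. *Tnfrsf9*, which encodes the costimulatory receptor 4-1BB, read 726 and 824 CPM with EV RV against 1181 and 1010 CPM with Tox RV, a log2 change of 0.50 (SE 0.17). In both genes the Tox RV and EV RV values did not overlap. *Ccr7*, the receptor that guides T cells to lymph nodes, read 684 and 348 CPM with EV RV against 191 and 271 CPM with Tox RV, a log2 change of -1.16 (SE 0.36), and leaving out any 1 library gave -1.57 to -0.60. *Myc* read 226 and 166 CPM with EV RV against 147 and 117 CPM with Tox RV, a log2 change of -0.57 (SE 0.23) that was -0.77 to -0.33 when any 1 library was left out. All 4 had an edgeR adjusted p of 0.897. Among the other abundant targets, *Il2ra* stood at -0.29 (SE 0.17), *Ltb* at 0.28 (SE 0.29) and *Tnfrsf4* at -0.08 (SE 0.32). Leaving out any 1 library gave -0.42 to -0.17 for *Il2ra*, and it turned the sign of *Ltb* (-0.074 to 0.75) and *Tnfrsf4* (-0.49 to 0.48). The list holds *Bcl2a1a*, *Bcl2a1b* and *Bcl2a1d*, near-identical copies whose reads RSEM divides by model, so their separate values are uncertain. Without Tox RV replicate 1 the median of the list was -0.08.

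Of the 13 restimulation genes 7 were fitted higher and 6 lower, with a median of 0.07 that turned to -0.32 without Tox RV replicate 1. At an unadjusted p-value below 0.05 in edgeR's quasi-likelihood test there was 1, beside 1.07% of all genes that were higher and 2.55% lower. This was *Nr4a2*, a nuclear receptor gene induced by T cell receptor signals. It read 14.0 and 13.1 CPM with EV RV against 23.1 and 18.9 CPM with Tox RV, a log2 change of 0.64 (SE 0.19, edgeR adjusted p = 0.897).

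**Figure D5:**
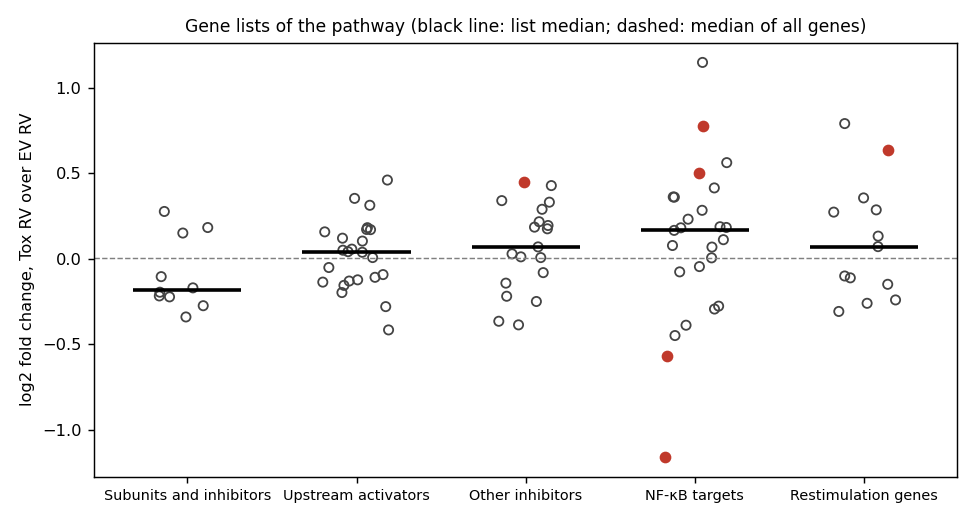
Log2 fold change of each gene tested in 5 lists, with genes at an unadjusted p-value below 0.05 in edgeR's quasi-likelihood test in red, the median of each list as a black line and the median of all genes as a dashed line. The 10 subunits and inhibitors span the narrowest range, and the target genes include values of either sign.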

How the data were processed

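RNA-seq was analysed for 2 EV RV and 2 Tox RV libraries, assigned by the sample labels. The authors checked reads with fastqc and used bowtie1 with RSEM on mm10 transcripts, 1 library per file. Versions and use of strand are not given in the sources used here. The deposited expected counts are RSEM's estimated fragments per gene, not normalized, and the deposited TPM values, also by RSEM, are corrected for length. A further series table, named as TPM but on another scale, was not used.

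Expected counts were rounded and tested in R 4.3.3 with edgeR 4.0.16 (filterByExpr, minimum count 10, TMM, glmQLFit and glmQLFTest, no covariate), with Benjamini-Hochberg adjustment over all 14143 genes. Standard errors came from the fold change and the F statistic, and 95% intervals from the fit's total degrees of freedom. Alternatives were DESeq2 1.42.0, other scalings, no filter, the replicate number as a block, limma 3.58.1 on log2(TPM + 1) and log2(TPM + 0.1), and leaving out each library. P-values set the difference between groups against the spread between these libraries, as estimated with information from all genes. The fit was tested on simulated data. The members and lists were chosen with earlier results of these data known. Genes named from the lists of activators, other inhibitors and targets were those at an unadjusted p-value below 0.05 and the 4 of highest mean TPM. Restimulation genes are named as examples of their list, and the *Bcl2a1* copies for their uncertain counts. Promoter windows came from RefSeq, and gene positions from GENCODE M21.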

Additional observations from a re-analysis of the deposited data

How the results depend on the processing

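None of the 10 NF-κB genes passed an adjusted p-value of 0.05 under any of 12 alternatives, where the lowest adjusted p-value was 0.105 (*Relb*, without EV RV replicate 2, where its others ran from 0.805 to 1.00). Over all genes the count past that threshold, 0 in edgeR's quasi-likelihood test (512 at an unadjusted p-value below 0.05), was 22 in DESeq2, 22 without the low-count filter, 16 with the replicate block and 1 to 393 with each library left out, where the lone library of a group is assumed to vary like the others. Replicate 1 minus replicate 2 correlated between the groups across genes (r = 0.31), but the labels tie no number to a mouse and no pairing was assumed.

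Of 120 alternative log2 fold changes 13 had the opposite sign, 12 of them with a library left out, and 6 without EV RV replicate 1. The ranges with each library left out were -0.46 to 0.061 for *Nfkb2*, -0.16 to 0.62 for *Rel*, -0.45 to 0.16 for *Rela*, -0.44 to 0.085 for *Relb*, -0.053 to 0.38 for *Nfkbia*, -0.77 to 0.27 for *Nfkbie*, -0.89 to 0.51 for *Nfkbiz* and -0.52 to 0.47 for *Tnfaip3*. *Nfkb1* and *Nfkbid* kept their sign in all 12. Scaling by library totals, which moved the median of all genes to 0.12, gave 0.045 for *Tnfaip3*, put 2 members (*Nfkbia* and *Nfkbid*) above and 0 below in both Tox RV libraries, and of all genes 3893 above and 1620 below. In TPM 1634 of all genes were above and 3279 below. The causes were not tested. With 2 libraries per group, the spread between replicates limits these results more than depth.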
